A study of Rattus norvegicus with 56 samples.

Results

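The acute response of the hippocampus was examined in 8 small RNA libraries, 4 from rats whose hippocampus was taken 24 h after TBI and 4 from sham controls of the same interval. They were chosen by their labels, with earlier results of these data known. They are 8 of the 56 hippocampal libraries of a series that followed rats to 1 year after injury. Both groups were rats with the same tissue, extraction and library kit, and differ in the labels by the treatment, TBI or Sham surgery. TBI was given as fluid percussion injury (FPI), in which a brief fluid pulse deforms the brain through an opening in the skull, and sham rats went through surgery without the pulse. Each library stands for 1 rat, and strain, sex, age and the side of the brain are not given in the sources used here. Rats are called TBI rat 1 to 4 and sham rat 1 to 4, numbers that only name them and pair no TBI rat with a sham rat.

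MicroRNAs (miRNAs) are short RNAs that guide a silencing complex to messenger RNAs. A hairpin precursor yields a 5p and a 3p strand, and pairing between the target and bases 2 to 8 of the mature strand, the seed, largely decides which messengers are repressed, so that miRNAs with the same seed share many targets. Several miRNAs are known to be switched on by innate immune signalling (miR-155, miR-146a, miR-21), others are carried by blood leukocytes and microglia (miR-142, miR-223) and others are typical of neurons (miR-9, miR-124, miR-7). The hippocampus, which serves memory, is vulnerable to TBI, and its glia and the blood cells that enter it take part in the early inflammation.

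At 24 h after TBI, 4 miRNAs rose in the hippocampus and none fell past the threshold. The rise was 6.76-fold for miR-155-5p, 3.26-fold for miR-21-5p, 2-fold for miR-27a-5p and 1.75-fold for miR-20a-5p, and for each of the 4 all TBI rats lay above all sham rats. These 4 are 1.72% of the 233 miRNAs with enough reads to be tested (edgeR's quasi-likelihood test, Benjamini-Hochberg adjusted p under 0.05). An unadjusted p under 0.05 was found for 13 of the 233, the 4 included, about as many as that threshold passes without any effect. All 13 were higher after TBI and 0 were lower. Some of them, such as miR-17-5p and miR-20a-5p, are close in sequence and may share reads, so they are not independent. A log2 fold change of at least 0.5 in size was estimated for 17 miRNAs, all of them higher after TBI, while the lowest estimate of any miRNA was −0.46. A bulk library cannot tell fewer or more cells of a type from less or more RNA per cell, and this holds for every value given here.

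The deposited table lists raw counts under 367 miRNA names, 309 of them ending in 5p, 5 in 3p and 53 in neither, so most 3p strands were not analysed here. At 24 h, 316 of them had at least 1 read and 51 had none. Total counts were 3292515 to 9171447 in the TBI libraries and 3932433 to 11271301 in the sham libraries (two-sided exact permutation test of depth, p = 0.343), and 273 to 297 miRNAs had reads in each library. The 3 most abundant, miR-9a-5p, then miR-26a-5p, then miR-99a-5p, took 41.9 to 44.2% of the counts in 7 libraries and 38.9% in TBI rat 2, without which 3 of the 4 calls given above were kept and that of miR-20a-5p was lost. The tissue carried its neuronal markers, whose summed level was 245404 to 332466 reads per 1e+06 (CPM) in sham and 262218 to 331637 CPM in TBI rats. Most of this sum is miR-9a-5p. CPM are counts scaled to the effective library size, which corrects depth but leaves every value a share of the counts under these 367 names.

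The mature sequences of the miRNAs on which the comparison turns are given 5′ to 3′ with the seed in capitals, from RefSeq (GRCr8), which held 331 of the 367 names. The first 4 are the miRNAs that rose. The others share a seed with miR-20a-5p, are encoded beside it (miR-18a-5p, with the seed AAGGUGC), or are the immune and neuronal miRNAs described with them.
miR-155-5p: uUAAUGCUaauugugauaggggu
miR-21-5p: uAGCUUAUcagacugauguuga
miR-27a-5p: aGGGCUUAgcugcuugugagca
miR-20a-5p: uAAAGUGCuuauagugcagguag
miR-17-5p: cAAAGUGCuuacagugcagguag
miR-20b-5p: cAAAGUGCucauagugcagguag
miR-93-5p: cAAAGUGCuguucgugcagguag
miR-106b-5p: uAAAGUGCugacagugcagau
miR-18a-5p: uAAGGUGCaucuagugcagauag
miR-142-5p: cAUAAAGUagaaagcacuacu
miR-223-5p: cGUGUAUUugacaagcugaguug
miR-146a-5p: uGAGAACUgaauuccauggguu
miR-146b-5p: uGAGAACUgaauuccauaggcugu
miR-7a-5p: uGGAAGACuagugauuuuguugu
miR-7b: uGGAAGACuugugauuuuguugu
The 3 top lines have seeds of their own in this table, whereas miR-20a-5p shares the seed AAAGUGC with 4 other measured miRNAs. miR-17-5p and miR-20a-5p differ by 2 edits over their whole length, miR-17-5p and miR-20b-5p by 2, and miR-7a-5p and miR-7b by 1, so how shared reads were divided can move values between them.

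miR-155-5p, which is made from the immune-induced transcript Mir155hg and is known to promote inflammatory signalling in macrophages and microglia, changed most. Its level was 6.99, 8.85, 11.3 and 9.15 CPM in sham rats 1 to 4 and 64.8, 72.5, 51.99 and 48.2 CPM in TBI rats 1 to 4. The lowest TBI rat was therefore more than 4 times the highest sham rat, and the TBI rats differed among themselves by a factor of 1.5. The log2 fold change was 2.76 (standard error, SE, 0.22, 95% interval 2.28 to 3.23, adjusted p = 1.39e-05 in edgeR's quasi-likelihood test). A two-sided exact permutation test returned p = 0.0286, which is the lower limit for 4 rats against 4. RefSeq places the mature strand at chr11:37261117-37261139 on the plus strand of GRCr8, within Mir155hg.

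miR-21-5p, known in many tissues for its induction in reactive glia, macrophages and growing cells, was the abundant member of the response. It was at 5797, 4944, 7916 and 4716 CPM in the sham rats and 20868, 19704, 19846 and 15696 CPM in the TBI rats. No TBI rat came near the sham range, and the coefficient of variation was 12% in TBI and 24.9% in sham rats. The log2 fold change was 1.70 (SE 0.18, 95% interval 1.32 to 2.09, adjusted p = 0.000115 in edgeR). In terms of the whole pool, miR-21-5p went from a mean of 0.572% of all miRNA reads after sham surgery to 1.92% after TBI. That gain of 13185 CPM was the largest gain of any miRNA, although miR-155-5p had the larger fold change. Its mature strand lies at chr10:71902653-71902674 on the minus strand (GRCr8).

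miR-27a-5p is the 5p strand of a hairpin whose 3p strand is the usual guide and belongs to the miR-23a cluster. It was at 17.8, 12.6, 19.8 and 13.3 CPM in sham rats and 35.5, 28.4, 29.2 and 30.8 CPM in TBI rats, without overlap. The log2 fold change was 1.00 (SE 0.19, 95% interval 0.57 to 1.42, adjusted p = 0.0247 in edgeR). The call was lost when sham rat 2 or TBI rat 1, 3 or 4 was left out, with an adjusted p of up to 0.0888, while the estimate stayed between 0.86 and 1.09. It lies at chr19:40859655-40859676 on the minus strand (GRCr8), beside miR-24-2 and miR-23a.

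miR-20a-5p, a member of the miR-17-92 cluster, which is known to favour cell cycle entry, was at 202, 171, 229 and 140.9 CPM in sham rats. The TBI rats were at 302, 371, 300.0 and 317 CPM, all above the highest sham rat. The log2 fold change was 0.81 (SE 0.17, 95% interval 0.43 to 1.18, adjusted p = 0.0341 in edgeR). The call was lost without sham rat 2 or any one of the 4 TBI rats, with an adjusted p of up to 0.114, and the estimate ranged from 0.73 to 0.89. It lies at chr15:98588318-98588340 on the plus strand (GRCr8).

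**Figure D1:**
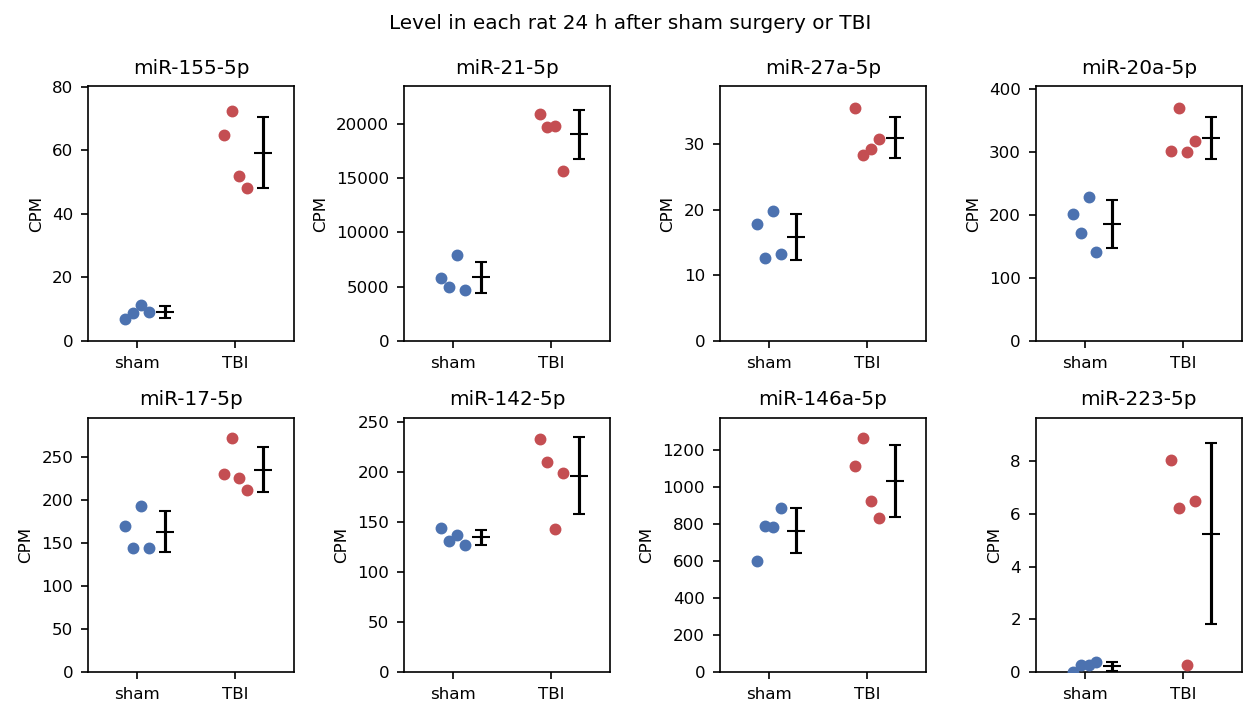
Each panel plots 1 miRNA, with CPM on a linear axis from 0, a point for each of the 4 sham (blue) and 4 TBI (red) rats, and the mean with its SD beside them in black. The upper 4 panels and that of miR-17-5p show no overlap between the groups, whereas in miR-223-5p TBI rat 3 lies at 0.271 CPM among the sham rats.

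In 9 of the 233 tested miRNAs (3.86%) all 4 TBI rats lay above all 4 sham rats, and in 2 (0.858%) they all lay below. The 5 of the 9 that did not pass the adjusted threshold were miR-17-5p, miR-298-5p, miR-3065-5p, miR-7b and miR-455-5p. miR-17-5p, the first miRNA of the miR-17-92 cluster, was at 170.2, 144.5, 193 and 144.6 CPM in sham and 229.9, 272, 226 and 211.1 CPM in TBI rats. Its log2 fold change was 0.54 (SE 0.15, adjusted p = 0.219 in edgeR), and DESeq2's Wald and likelihood ratio tests did call it. miR-298-5p, which lies beside miR-296, was at 50.9, 42.7, 62.3 and 56.3 CPM in sham and 68.5, 70.7, 84.5 and 75.2 CPM in TBI rats, a log2 fold change of 0.51 (SE 0.16, adjusted p = 0.327). miR-455-5p had narrow groups, 229 to 258 CPM in sham and 272 to 316 CPM in TBI rats, and a small log2 fold change of 0.25 (SE 0.12, adjusted p = 0.869).

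Other miRNAs with an unadjusted p under 0.05 were low or overlapped between the groups. miR-20b-5p, at 1.10 to 1.67 CPM in sham and 1.48 to 3.70 CPM in TBI rats, had the highest log2 estimate outside the called set, 0.92 (SE 0.32, adjusted p = 0.411 in edgeR). miR-3065-5p, encoded opposite miR-338 in the oligodendrocyte-linked locus of Aatk, was at 1.46 to 2.19 CPM in sham and 2.64 to 5.55 CPM in TBI rats, a log2 fold change of 0.85 (SE 0.30, adjusted p = 0.464). miR-18a-5p of the miR-17-92 cluster had a log2 fold change of 0.64 (SE 0.26, adjusted p = 0.627), from 3.18 to 6.51 CPM in sham and 5.25 to 7.04 CPM in TBI rats. These levels are a few CPM each, and their SEs were larger than the median of 0.19 over all tested miRNAs.

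The pair miR-7a-5p and miR-7b, neuron-enriched miRNAs that share the seed GGAAGAC, moved by a similar small amount at high abundance. miR-7a-5p was at 51521, 46394, 39777 and 33226 CPM in sham and 59340, 46209, 50790 and 58856 CPM in TBI rats, so that TBI rats 2 and 3 fell inside the sham range. miR-7b was at 5728, 4759, 5662 and 4313 CPM in sham and 7125, 6357, 6056 and 6063 CPM in TBI rats, without overlap. The log2 fold changes were 0.33 (SE 0.15, adjusted p = 0.83) and 0.32 (SE 0.13, adjusted p = 0.579) in edgeR, and neither passed the threshold. With the counts of both summed, the estimate for the shared seed was 0.35 (SE 0.14, adjusted p = 0.594).

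**Figure D2:**
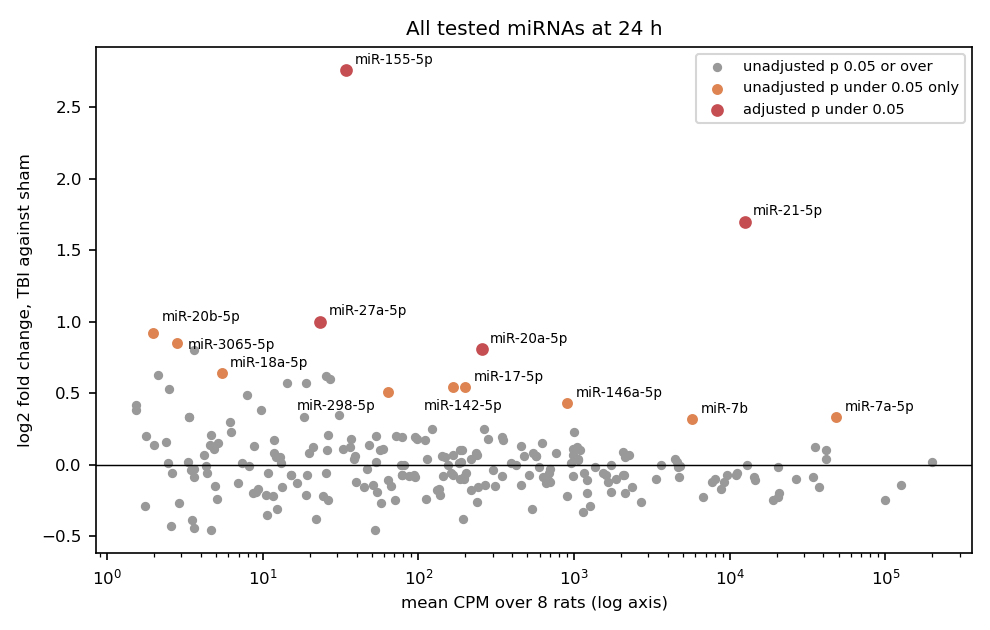
Each point is 1 of the 233 tested miRNAs, with its mean CPM over the 8 rats on a log axis and its log2 fold change of TBI against sham on the vertical axis. The 4 red points (adjusted p under 0.05) and the 9 orange points (unadjusted p under 0.05 only) all lie above 0, and no point lies below −0.46.

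On the lower side no miRNA had an unadjusted p under 0.05, and the edgeR, DESeq2 and limma alternatives made 0 lower calls. The lowest p belonged to miR-99a-5p, 1 of the 3 most abundant miRNAs, at 86841, 116771, 111245 and 116782 CPM in sham and 94437, 88607, 92886 and 87995 CPM in TBI rats. Sham rat 1 lay below all TBI rats, and the log2 fold change was −0.25 (SE 0.11, adjusted p = 0.869 in edgeR). Its mean difference of −16928 CPM was nevertheless the largest change in reads of any miRNA, in either direction. miR-181a-5p, a miRNA abundant in neurons, was at 21072, 20848, 22078 and 24569 CPM in sham and 17421, 20288, 20385 and 17229 CPM in TBI rats, all TBI rats below, with a log2 fold change of −0.23 (SE 0.11, adjusted p = 0.869). The other miRNA with all TBI rats below, miR-337-5p of the imprinted Dlk1-Dio3 locus, differed by −0.13 (SE 0.11). The count of 2 does not hold under other library scalings, being 1 with the size factors of DESeq2 and 0 with total counts, whereas the count of 9 above was 9 under both.

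Further members of the lower side overlapped between the groups. miR-323-5p and miR-376c-5p of the Dlk1-Dio3 locus had log2 estimates of −0.46 (SE 0.23) and −0.44 (SE 0.28), and miR-3064-5p, at 1.23 to 3.96 CPM, had −0.43 (SE 0.27). For miR-151-5p the estimate was −0.38 (SE 0.21), with sham rat 3 at 332 CPM and the other sham rats at 163 to 207 CPM beside TBI rats at 152 to 179 CPM. miR-504, in the Fgf13 gene, had −0.33 (SE 0.17), from 926 to 1416 CPM in sham and 793.5 to 1213 CPM in TBI rats. miR-139-5p (in Pde2a), miR-125a-5p and miR-346 (in Grid1), all prominent in neurons, had −0.23, −0.25 and −0.26, each with overlapping groups. The adjusted p of every one of them was 0.869 or 0.98 in edgeR's quasi-likelihood test.

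The precision of the comparison limits what the absence of calls can mean. Over all 233 miRNAs the median log2 fold change was −0.01 and the median size, without sign, was 0.12, under the median SE of 0.19. The 95% interval lay within 1 of 0 on the log2 scale for 207 miRNAs (88.8%), and within 0.5 for only 85. Of the 229 miRNAs not called, 22 had an interval that reached a doubling or a halving. Precision followed abundance: the median SE was 0.30 for the 45 miRNAs under 10 CPM, 0.21 for 64 at 10 to 100 CPM, 0.17 for 66 at 100 to 1000 CPM and 0.14 for 58 at 1000 CPM and over. The called miRNAs came from the 3 upper tiers, 2, 1 and 1 of them in that order.

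Among immune-linked miRNAs, the response was uneven. Of the 5 measured miRNAs on the list of those known to be induced by innate immune signalling, 2 were called, miR-155-5p and miR-21-5p. Over all tested miRNAs 1.72% were called, and the list median was 0.43 beside −0.01. The list was chosen with earlier results of these data known, and the study names both miRNAs, so these shares are a description only. miR-146a-5p, a known brake on Toll-like receptor signalling, was at 602, 791, 783.1 and 891 CPM in sham and 1116, 1266, 924 and 832 CPM in TBI rats. TBI rat 4 lay inside the sham range, and the log2 fold change was 0.43 (SE 0.17, 95% interval 0.06 to 0.81, adjusted p = 0.579 in edgeR). Its paralogue miR-146b-5p, which has the same seed and was more abundant at 3861 to 5764 CPM in sham and 4069 to 4997 CPM in TBI rats, had −0.02 (SE 0.14). The summed level of the seed GAGAACU therefore differed by 0.07 (SE 0.12, adjusted p = 0.986). miR-132-5p, also on the list, had −0.10 (SE 0.20).

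Markers of blood and other cells were read in the same libraries, as 5p strands or under names without an arm. miR-142-5p, made in cells of the blood lineage including microglia, was at 144.4, 131, 137.02 and 127 CPM in sham and 233, 210.3, 142.96 and 199 CPM in TBI rats. TBI rats 1, 2 and 4 lay above all sham rats and TBI rat 3 did not, and the log2 fold change was 0.54 (SE 0.16, adjusted p = 0.271 in edgeR). miR-223-5p, the minor strand of a miRNA typical of neutrophils and monocytes, was too low for the test, with 0, 3, 1 and 3 counts in sham rats 1 to 4 and 26, 61, 1 and 35 counts in TBI rats 1 to 4. Against a floor of 3 counts in each sham library, its mean in TBI rats was at least 10.9-fold higher, or at least 14.4-fold without TBI rat 3 (two-sided exact permutation test over all 8 rats, p = 0.0857). edgeR called it once the filter on low counts was lifted.

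TBI rat 3 was thus the lowest TBI rat in both miR-142-5p and miR-223-5p, with 1 count of the latter. It stood among the other TBI rats in miR-155-5p, in miR-27a-5p and in miR-21-5p. In miR-20a-5p it was again the lowest TBI rat, at 300 CPM, above the highest sham rat at 229 CPM. The other leukocyte markers had estimates below 0, though not in every subset of rats. miR-150-5p, typical of lymphocytes, had a log2 fold change of −0.29 (SE 0.25), with sham rat 4 at 2288 CPM against 1003 to 1222 CPM in the other sham rats and 1011 to 1355 CPM in the TBI rats, and with 1 rat left out its estimate ran from −0.45 to 0.09. miR-342-5p had −0.38 (SE 0.27), and the summed level of the 4 leukocyte markers, which miR-150-5p dominates, was 1151 to 2443 CPM in sham and 1240 to 1586 CPM in TBI rats. The red blood cell markers miR-451-5p, miR-144-5p and miR-486 summed to 259.7 to 415 CPM in sham and 226 to 369.7 CPM in TBI rats, with 0 of 3 called. The part of blood cells in the rise of any miRNA was not tested.

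Markers of other tissues, read as 5p strands or under names without an arm, moved little or with single rats. The vessel wall miRNAs miR-143-5p, miR-145-5p and miR-126a-5p had log2 estimates of 0.06 to 0.15, none called, and summed to 904 to 1297 CPM in sham and 967 to 1458 CPM in TBI rats. The choroid plexus markers miR-204-5p, miR-211-5p, miR-448-5p and miR-764-5p varied widely within both groups, summing to 1400 to 5370 CPM in sham and 1585 to 4485 CPM in TBI rats, with 0 of 4 called. Of the muscle markers, the 5p strands miR-1-5p, miR-133b-5p, miR-208a-5p and miR-208b-5p had no reads. The 3p strands of the same hairpins were not analysed here, so this does not cover them. miR-499-5p, whose host gene Myh7b is also used in brain, had 0.06 (SE 0.25). The liver miRNA miR-122-5p was at 5.52 to 7.64 CPM in sham and 6.10 to 17.6 CPM in TBI rats, the highest value being that of TBI rat 1 (log2 fold change 0.49, SE 0.34). Of the epithelial list, 3 miRNAs could be tested, the sensory cluster miR-183, miR-96 and miR-182, with the highest median of any list, 0.62, and 0 called. miR-96-5p was at 1.54, 2.75, 1.35 and 11.3 CPM in TBI rats 1 to 4, and its log2 fold change of 0.80 was −0.22 without TBI rat 4.

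**Figure D3:**
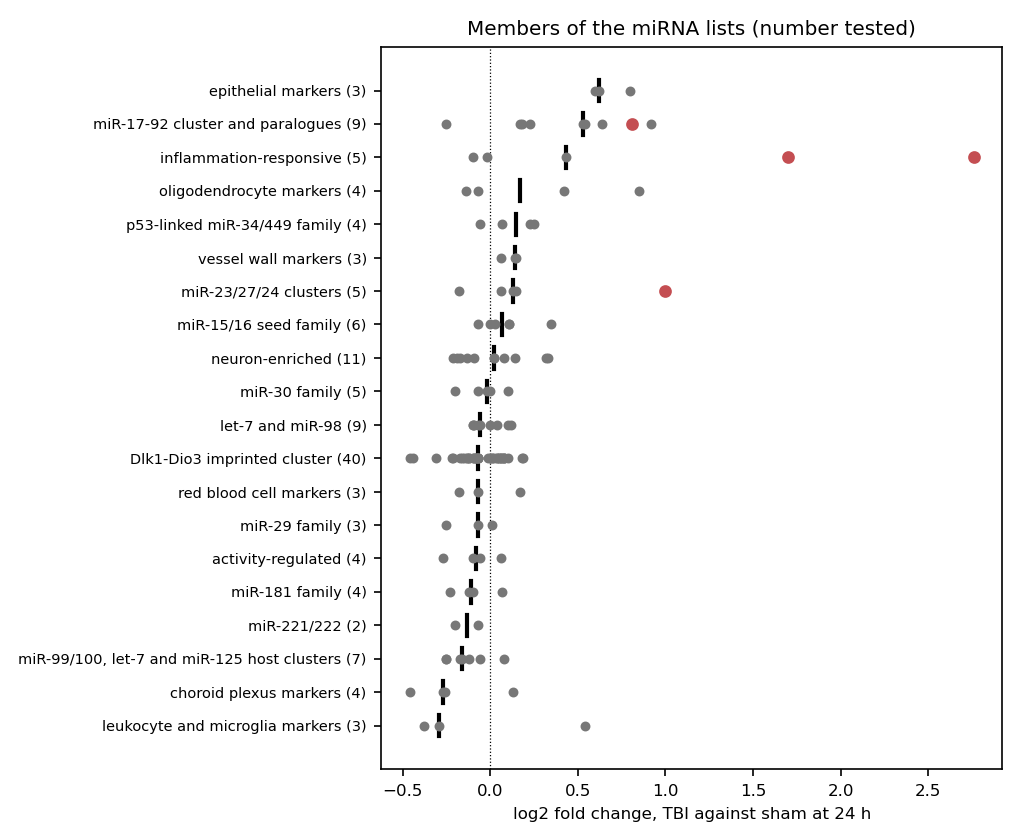
Each row is a list of miRNAs with the number tested in parentheses, each point the log2 fold change of 1 member (red where the adjusted p is under 0.05), and the black bar the list median. Red points occur in the inflammation-responsive, miR-17-92 and miR-23/27/24 lists only, the let-7 members lie between −0.10 and 0.12, and the neuron-enriched members between −0.21 and 0.33.

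The miR-17-92 cluster on chromosome 15 encodes 6 miRNAs on 1 transcript. Of its 5p strands, 4 were abundant enough to test, and all had estimates above 0: miR-20a-5p 0.81, miR-18a-5p 0.64, miR-17-5p 0.54 and miR-92a-1-5p 0.53 (SE 0.35). Only miR-20a-5p was called, and miR-19a-5p and miR-19b-1-5p, minor strands with under 1 CPM in every rat, could not be tested. The paralogous miR-106b-25 cluster had smaller estimates, 0.18 for miR-106b-5p, 0.17 for miR-93-5p and 0.23 for miR-25-5p (SEs 0.15, 0.15 and 0.27), all with overlapping groups. From the X-linked miR-106a-363 cluster, miR-20b-5p had 0.92 at 1 to 4 CPM, and RefSeq also lists a gene copy for the miR-17-5p sequence there, so reads of that sequence cannot be assigned to 1 locus. Over the cluster and its paralogues together, 9 were tested, 8 had estimates above 0 and 1 was called, with a median of 0.53. Over all tested miRNAs 109 of 233 had estimates above 0 and 1.72% were called. The difference between the miR-17-92 and miR-106b-25 clusters was not tested.

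When the counts of miRNAs with the same seed were summed, reads shared between the summed members could not move the total. Of the 233 tested miRNAs, 212 had a sequence. The others, such as miR-99a-5p, entered no family but may share reads with one. In all, 171 seed families were tested and 3 were called (1.75%). These were seeds with a single member each, those of miR-27a-5p, miR-21-5p and miR-155-5p. Of the 21 families with at least 2 tested members, 0 were called in edgeR, 2 had an unadjusted p under 0.05 (AAAGUGC and the GGAAGAC of miR-7), and their estimates ran from −0.23 to 0.45. The highest was the AAAGUGC family of miR-17-5p, miR-20a-5p, miR-20b-5p, miR-93-5p and miR-106b-5p. Its sum was 792.6, 794.4, 832.4 and 643 CPM in sham and 951, 1273, 966 and 980.3 CPM in TBI rats, all TBI rats above, with a log2 fold change of 0.45 (SE 0.14, 95% interval 0.14 to 0.76, adjusted p = 0.245). All 5 members had estimates above 0, from 0.17 to 0.92, and the abundant miR-93-5p, with 0.17, weighs most in the sum.

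**Figure D4:**
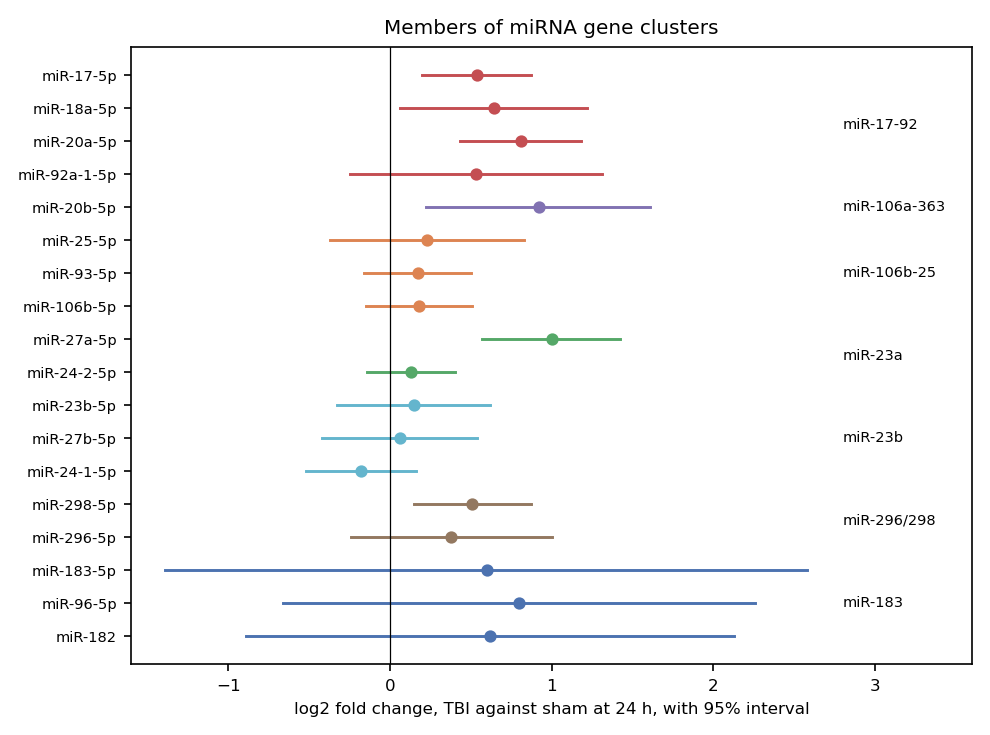
Log2 fold change of TBI against sham with its 95% interval for the tested members of 7 miRNA gene clusters, each cluster in 1 colour and named at the right. The miR-17-92 members lie between 0.53 and 0.81, miR-27a-5p lies apart from miR-24-2-5p of its own cluster, and the miR-183 cluster has intervals that span 0 widely.

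Neighbouring genes did not always move alike. miR-27a-5p rose by 1.00 on the log2 scale, whereas miR-24-2-5p, processed from the same cluster, was at 428, 452, 414 and 452 CPM in sham and 483, 428, 472 and 529.6 CPM in TBI rats, a log2 fold change of 0.13 (SE 0.12, 95% interval −0.14 to 0.40). miR-23a-5p had under 1 CPM in every rat and was not tested. In the paralogous miR-23b cluster the estimates were 0.15 for miR-23b-5p, 0.06 for miR-27b-5p and −0.18 for miR-24-1-5p, none called. miR-296-5p, beside miR-298-5p, had 0.38 (SE 0.28). Among the 32 clusters with at least 2 tested members within 10 kb, 9 had only estimates above 0 and 9 only estimates of 0 or below. Through their gene copies, miR-17-5p, let-7a-5p and let-7f-5p are counted in different clusters, so the clusters are not all independent. Of the 9 clusters with 3 or more tested members, 3 had only estimates above 0, miR-17-92, miR-106b-25 and miR-183, and 0 had only estimates below.

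The most abundant families and lists showed estimates near 0. The neuron-enriched list had 11 tested members, 0 called, a median of 0.02 and a range of −0.21 to 0.33, the upper end being the miR-7 pair, and miR-9a-5p, the most abundant miRNA, was at 163251 to 227390 CPM in sham and 169749 to 223657 CPM in TBI rats (log2 fold change 0.02, 95% interval −0.27 to 0.30). The 9 members of the let-7 seed, which restrains growth genes, summed to a log2 fold change of 0.05 (SE 0.11, 95% interval −0.20 to 0.30). miR-26a-5p, the second most abundant, had −0.14 (SE 0.13), and sham rat 3 was highest at 163796 CPM. The miR-181 seed had −0.17 (SE 0.10) and the miR-125 seed −0.17 (SE 0.10), both with intervals of −0.39 to 0.05. Of the miR-30 family 0 of 5 were called. Lists at lower levels held no calls either. These were the miR-15 and miR-16 family with 0 of 6 called and the miR-34 and miR-449 family with 0 of 4. Of the 5p strands of miR-29, which have different seeds, 0 of 3 were called, and of those of miR-221 and miR-222 0 of 2. The 3p strands of miR-29, miR-221 and miR-222 were not analysed here.

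Neuronal activity markers and the imprinted locus were likewise without calls. miR-132-5p and miR-212-5p, induced by neuronal activity from 1 transcript, had −0.10 (SE 0.20) and −0.06 (SE 0.16). The activity-regulated list had 0 of 4 called. All 4 are 5p strands, as are those of the hypoxia list below, and the 3p strands of these hairpins were not analysed here. Of the Dlk1-Dio3 cluster, a neuron-rich imprinted locus, 40 miRNAs were tested, 0 were called, 24 had estimates below 0 and 16 above, beside 109 of 233 above over all tested miRNAs, and the median was −0.07. Of the 4 oligodendrocyte markers 0 were called and the median was 0.17, with −0.14 (SE 0.28) for miR-219a-5p, −0.07 (SE 0.22) for miR-338-5p, 0.42 for miR-219b and 0.85 for miR-3065-5p, given above. On the hypoxia list only miR-199a-5p could be tested, with 0.19 (SE 0.25), and miR-210-5p had 2.04 CPM at most. The groups overlapped in each miRNA named here other than miR-3065-5p.

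Whether the response belongs to the acute interval was tested as the difference between the TBI effect at 24 h and the mean TBI effect of the 6 later intervals, over all 56 libraries. Of 244 miRNAs, 4 had a larger effect at 24 h (1.64%) and 0 a smaller one in edgeR at the adjusted threshold, while 21 had an unadjusted p under 0.05, 10 of them with a smaller effect. The difference was 2.08 for miR-155-5p (SE 0.28, 95% interval 1.52 to 2.64) and 1.53 for miR-21-5p (SE 0.21, 95% interval 1.11 to 1.95) on the log2 scale, both with an adjusted p of 2.29e-07. For miR-223-5p it was 4.09 (SE 0.61), a description only, since 3 of the 4 TBI libraries of 24 h and 1 of the 52 other libraries reached the level of the filter, 1.88 CPM, so that the miRNA entered the test through the group in which it was high. With the filter lifted for all miRNAs the estimate was 4.06 (adjusted p = 6.98e-07 in edgeR), and it rests on sham libraries at or near 0. For miR-653-5p, encoded in the Calcr gene, it was 2.17 (SE 0.60, adjusted p = 0.0396), from 3, 26, 5 and 47 counts in TBI and 2, 10, 4 and 5 counts in sham rats at 24 h. That call was lost without sham rat 1, 2 or 4 or TBI rat 4, and with the filter lifted (adjusted p = 0.0776 in edgeR).

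For the remaining miRNAs that rose, the difference was not past the threshold, with 0.67 (SE 0.24, adjusted p = 0.254) for miR-27a-5p and 0.57 (SE 0.25, adjusted p = 0.447) for miR-20a-5p. miR-142-5p differed by 0.12 (95% interval −0.20 to 0.44) and miR-146a-5p by −0.25 (95% interval −0.70 to 0.20). On a scale common to all intervals, the 4 TBI rats of 24 h were at 48.8 to 77.7 CPM in miR-155-5p and the highest of the 47 other libraries with at least 500000 counts, sham or TBI of later intervals, was at 33 CPM. In miR-21-5p they were at 15891 to 21128 CPM, above the highest other library at 11901 CPM. In miR-223-5p 3 of the 4 exceeded the highest other library, and in miR-27a-5p and miR-20a-5p 0 of the 4 did. Each interval has its own sham rats, so these comparisons share no control library.

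**Figure D5:**
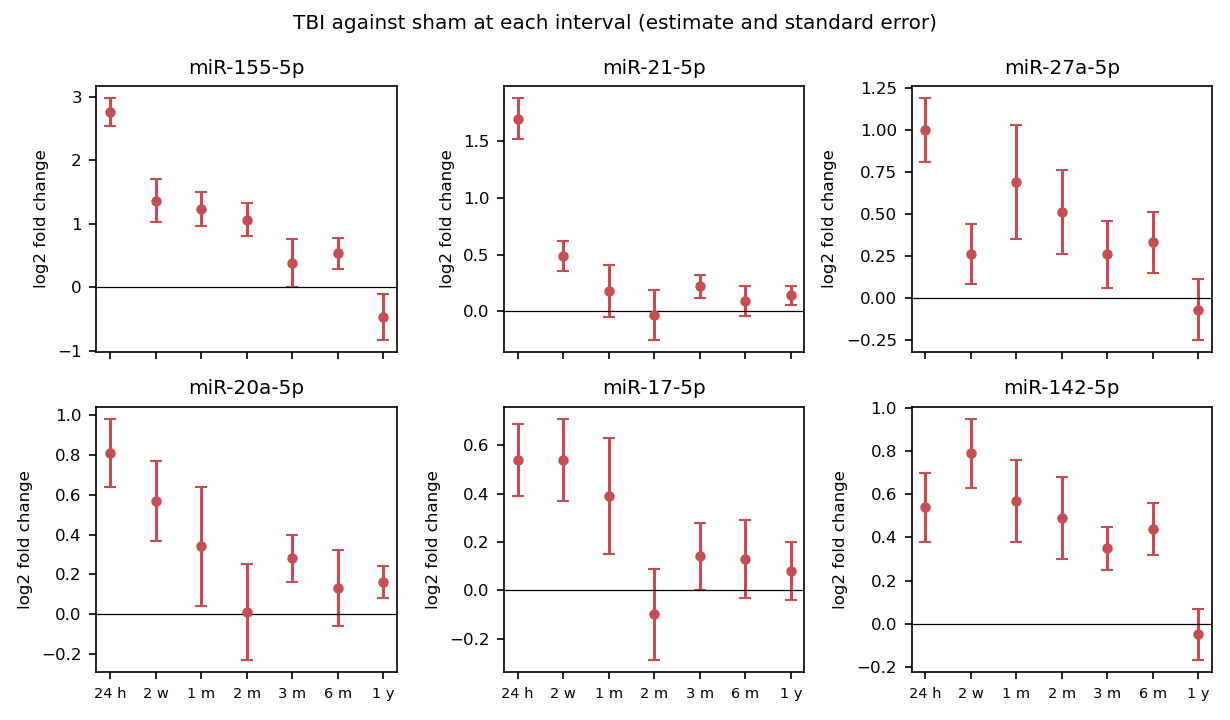
Log2 fold change of TBI against sham, with its SE, at each interval for 6 miRNAs, each panel with its own axis and intervals spaced evenly from 24 h to 1 year. miR-155-5p and miR-21-5p are highest at 24 h (2.76 and 1.70), whereas miR-142-5p has 0.54 at 24 h and 0.79 at 2 weeks.

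Across the miRNAs tested at both intervals, the log2 fold changes at 24 h had a Spearman rho of 0.37 with those at 2 weeks (226 miRNAs). With those of the 5 later intervals rho lay between −0.08 and 0.23. Pearson correlations were 0.10 with 2 weeks and 0.06 to 0.21 with those 5 intervals, so which interval is most alike depends on the measure. These are correlations over miRNAs, which share libraries and are no independent replicates, and they are given as a description. Below the filter, 83 of the 316 miRNAs with reads were left untested. Their mean was higher in TBI rats for 53 and lower for 30. The groups were apart in 1 of them, miR-193b-5p, in which all TBI rats lay below all sham rats, with 1, 6, 2 and 3 counts in TBI and 8, 15, 4 and 9 counts in sham rats, or 0.504 CPM against 1.18 CPM on average (two-sided exact permutation test, p = 0.0286, not adjusted for the 83 miRNAs). It was chosen after its values were seen. miR-6215 had 6, 7, 8 and 10 counts in TBI and 5, 7, 6 and 2 counts in sham rats, or 1.65 CPM against 0.816 CPM on average (p = 0.0571 in the same exact test). The floor of 3 counts was 0.266 to 0.911 CPM in the 8 libraries, so that such levels are near it.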

How the data were processed

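Total RNA of rat hippocampus was extracted with Ribopure and made into libraries with the NEBNext small RNA kit by the authors, who sequenced them on an Illumina instrument and used miRDeep2 with miRBase to trim adapters and to count the reads of each miRNA. The submitters' processing notes name bcl2fastq 2.20.0.422. The deposited table holds raw counts of 56 samples, and 0 columns were left out. How reads matching several miRNAs were divided is not given in the sources used here, nor is the genome build. Serum and human samples were not used here.

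The 8 libraries of 24 h were fitted in R 4.3.3 with edgeR 4.0.16: filterByExpr by group, TMM scaling and the quasi-likelihood test, with Benjamini-Hochberg adjustment over all miRNAs tested and a threshold of 0.05. Standard errors are the size of the log2 fold change over the square root of F. CPM use TMM-scaled library sizes, and exact permutation tests used log2 CPM with a prior count of 2. Seed families were summed counts of miRNAs with a RefSeq sequence in the same fit. The 24 h effect was set against the 6 later effects in a fit of 14 group means. Positions and sequences are those of RefSeq (GRCr8), and a cluster is tested miRNA genes on 1 strand at most 10 kb apart. Steps were tested on simulated data. Tables and figures used Python 3.11.15, pandas 2.3.3, scipy 1.17.1 and matplotlib 3.10.9.

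The libraries, lists and miRNAs named were chosen with earlier results of these data known. Named were the called miRNAs, the 15 higher and 10 lower with the lowest p, the 3 most abundant, miRNAs the study names, for each list its member with the lowest p (all members of lists of up to 4) and those of the contrast with later intervals. Members of the gene clusters were added after their values were seen. Whether rats were processed in separate batches is not stated in the labels, so p-values measure the spread between these libraries. The library titles end in numbers that repeat within the sham and within the TBI group. The labels do not say what these numbers mean, and no term for them was fitted. Counts of the 12 pairs of libraries within groups differed by more than sampling noise (chi-square of at least 85.6 for each degree of freedom). The floor of 3 counts covers counting error only. Alternatives were the scalings and tests of DESeq2 1.42.0, total counts, a lifted filter, a minimum of 10 counts in every library, edgeR's likelihood ratio test, limma 3.58.1 with voom, a joint fit of 56 libraries and leaving out each rat. edgeR's older quasi-likelihood fit and the scalings of the counts without overlap were added after seeing the data.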

Additional observations from a re-analysis of the deposited data

Results flagged for a closer look

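Within the groups of 4, single rats lay far from the other 3 in 13 of 132 group comparisons of the miRNAs named. The limit set passes about 5% of groups of independent, normally distributed values. CPM of miRNAs from shared libraries need not be such values, so the count is a description only. TBI rat 2 was the distant rat in miR-15b-5p (49.8 CPM), miR-212-5p (943 CPM, below the others), miR-219a-5p (339 CPM), miR-221-5p (661 CPM) and miR-362-5p (25.1 CPM). TBI rat 4 was distant in miR-211-5p (83.95 CPM), miR-96-5p (11.3 CPM) and, below the others, miR-323-5p (38.4 CPM). Among sham rats, sham rat 4 was high in miR-150-5p (2288 CPM), sham rat 2 in miR-221-5p (789.7 CPM) and in the red blood cell miRNA miR-451-5p (178 CPM), sham rat 3 in miR-26a-5p (163796 CPM) and sham rat 1 in miR-376c-5p (5.76 CPM). None of the 4 called miRNAs had such a rat in either group.

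The log2 TBI effect at 24 h exceeded the mean of the later intervals in 4 miRNAs in edgeR's test of the difference. It did so by 2.08 in miR-155-5p, 1.53 in miR-21-5p, 4.09 in miR-223-5p and 2.17 in miR-653-5p. For miR-223-5p this is a description only, since it entered the test through the group in which it was high. The call of miR-653-5p was lost with the filter lifted (adjusted p = 0.0776 in edgeR).

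Below the filter on low counts, 5 miRNAs had at least 3 TBI rats above the highest sham rat, and 3 of these averaged at least 1 CPM in TBI rats, miR-223-5p at 5.25 CPM, miR-653-5p at 3.41 CPM and miR-6215 at 1.65 CPM. Their two-sided p was 0.0857, 0.0571 and 0.0571 in exact permutation tests, unadjusted. In the other direction 5 miRNAs had at least 3 TBI rats below the lowest sham rat, all 4 of them in miR-193b-5p.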

How the results depend on the processing

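The alternatives leave the 2 largest changes called throughout, and the smaller ones not. miR-155-5p and miR-21-5p were called in 18 of 18 alternatives, miR-27a-5p in 14 and miR-20a-5p in 13. The number called, 4, was 4 or 5 under every other scaling, filter and test of the 8 libraries, with miR-223-5p added without the filter and miR-17-5p added in both DESeq2 tests. It was 8 in the joint fit of all 56 libraries, which added miR-142-5p, miR-223-5p, miR-298-5p and miR-653-5p, and 2 to 5 with 1 rat left out, being 2 without TBI rat 1 or TBI rat 4. The cause of these shifts was not tested. Called seed families, 3, were 2 to 4 with a rat left out, and miRNAs differing from later intervals, 4, were 3 to 5 over all alternatives. miRNAs with all TBI rats below all sham rats, 2, were 1 with DESeq2 size factors and 0 with total counts. Of the 62 miRNAs named, 42 kept their direction under every alternative, and each of the other 20 was uncalled. Their log2 fold changes with 1 rat left out ran over miR-132-5p −0.24 to 0.06, miR-134-5p −0.03 to 0.11, miR-144-5p −0.12 to 0.38, miR-145-5p −0.27 to 0.28, miR-150-5p −0.45 to 0.09, miR-181c-5p −0.24 to 0.06, miR-181d-5p −0.04 to 0.19, miR-199a-5p −0.09 to 0.35, miR-204-5p −0.67 to 0.15, miR-212-5p −0.20 to 0.06, miR-219a-5p −0.40 to 0.12, miR-221-5p −0.23 to 0.18, miR-29a-5p −0.33 to 0.07, miR-29c-5p −0.07 to 0.11, miR-338-5p −0.23 to 0.17, miR-448-5p −0.22 to 0.35, miR-451-5p −0.27 to 0.43, miR-499-5p −0.09 to 0.24, miR-96-5p −0.22 to 1.17 and miR-9a-5p −0.05 to 0.10. Other settings turned the sign for miR-29c-5p (−0.02 with at least 10 counts, 0.00 in both DESeq2 tests), miR-9a-5p (−0.01 with at least 10 counts), miR-338-5p (0.00 with voom) and miR-451-5p (0.04 with voom). No paired analysis was possible because the labels give sham and TBI libraries no shared replicate numbers. Depth limits miRNAs under about 10 CPM, where the median standard error was 0.30.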
